A study of Mus musculus with 12 samples.

Results

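Distal regions that carried both H3K27ac and H3K27me3 were examined in mouse mesenchymal stem cells (MSCs) from young and old animals. MSCs are stromal cells of tissues such as bone that can give rise to bone, fat and cartilage cells. Both marks had been profiled by CUT&RUN, in which an antibody directs a nuclease to chromatin so that the DNA around the mark is released and sequenced. A member was an autosomal H3K27ac region shorter than 50 kb, lying more than 1 kb from the transcription start site (TSS) of every protein-coding gene and overlapping an H3K27me3 region by at least 50% of the shorter region. These criteria selected 2596 of the 31617 H3K27ac regions, and 2596 of the 21864 regions that met the chromosome, length and distance criteria alone. The members formed 2608 pairs with 2168 of the 28047 H3K27me3 regions, which are called partners here. Each pair was then followed through the young and old libraries of both marks. The selection used positions alone and no signal value.

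There were 12 libraries in 4 groups of 3, made with an antibody against H3K27ac or against H3K27me3 from young cells (3 to 5 months) and old cells (18 to 22 months). All cells were cultured at 2% oxygen, and the cells of each sample were divided between 2 tubes, 1 for each antibody. The labels give no strain, sex or number of animals behind a sample, so the p-values measure the spread between these samples, which may in part be technical. The recovered library sizes were 2750953 to 5541429 reads for H3K27ac and 3622108 to 9947515 for H3K27me3, and old library 2 was the smallest for both marks. H3K27ac regions lay over a TSS of 10 of the 10 stromal marker genes examined, including Pdgfra, Ly6a and Prrx1. The same was found for 1 of 7 blood markers (Csf1r), 1 of 4 endothelial markers (Pecam1), 0 of 3 epithelial markers and 0 of 3 neural markers. The cells were profiled in bulk, so both marks on 1 chromosome and each mark in a different subset of cells cannot be told apart.

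Acetylation of histone H3 at lysine 27 is laid down at active promoters and enhancers and is bound by factors that promote transcription. Trimethylation of the same lysine is deposited by Polycomb repressive complex 2 and often spreads over broad domains around silent developmental genes. A single lysine cannot carry both groups at once, so in a region positive for both the marks sit on different histone tails, alleles or cells. Distal elements that bear repressive marks are known from stem cells, where many lie close to genes of development.

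The 300 bases richest in CG dinucleotides were extracted from the overlap of the marks at the pairs described most closely below. They are written 5′ to 3′ on the plus strand of GRCm38.p6 as given by RefSeq, with CG in capitals because CG density is a feature in which the members differed from other distal regions. Krt12 and Shb were the pairs with the most extreme called change of H3K27ac and of H3K27me3, at chr11:99406461-99406760 and chr4:45508604-45508903.
Krt12: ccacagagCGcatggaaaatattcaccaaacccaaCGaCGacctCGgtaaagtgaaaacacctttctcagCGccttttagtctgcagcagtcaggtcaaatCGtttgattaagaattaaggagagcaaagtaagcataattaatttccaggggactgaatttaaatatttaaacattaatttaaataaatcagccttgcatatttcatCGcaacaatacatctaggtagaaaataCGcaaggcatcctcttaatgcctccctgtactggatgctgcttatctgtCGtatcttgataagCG
Shb: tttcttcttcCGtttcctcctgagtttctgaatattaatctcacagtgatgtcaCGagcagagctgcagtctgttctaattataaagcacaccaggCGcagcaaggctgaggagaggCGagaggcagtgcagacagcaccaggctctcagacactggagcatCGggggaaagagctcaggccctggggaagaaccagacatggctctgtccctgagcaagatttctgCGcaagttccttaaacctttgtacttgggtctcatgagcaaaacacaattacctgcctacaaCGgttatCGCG
Ebf1 and Pdlim3 stood for pairs in which the marks moved in opposite directions, at chr11:45068691-45068990 and chr8:45814750-45815049.
Ebf1: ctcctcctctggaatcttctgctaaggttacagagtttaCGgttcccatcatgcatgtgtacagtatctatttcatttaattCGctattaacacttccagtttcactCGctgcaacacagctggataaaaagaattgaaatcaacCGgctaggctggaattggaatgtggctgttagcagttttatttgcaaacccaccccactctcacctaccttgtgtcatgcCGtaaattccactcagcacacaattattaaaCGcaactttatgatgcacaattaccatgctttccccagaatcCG
Pdlim3: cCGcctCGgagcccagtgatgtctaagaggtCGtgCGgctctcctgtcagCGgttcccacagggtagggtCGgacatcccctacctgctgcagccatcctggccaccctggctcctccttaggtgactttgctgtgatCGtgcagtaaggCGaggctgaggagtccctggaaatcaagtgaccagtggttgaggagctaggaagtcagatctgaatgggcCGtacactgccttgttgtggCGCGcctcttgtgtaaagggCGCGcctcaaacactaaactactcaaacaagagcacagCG
The remaining windows came from the pairs with the highest density of both marks, at chr17:39844265-39844564, which GENCODE annotates with a ribosomal RNA gene (CT010467.1) and whose nearest protein-coding gene was Esp38, and at chr15:75086641-75086940 near Ly6c2.
Esp38: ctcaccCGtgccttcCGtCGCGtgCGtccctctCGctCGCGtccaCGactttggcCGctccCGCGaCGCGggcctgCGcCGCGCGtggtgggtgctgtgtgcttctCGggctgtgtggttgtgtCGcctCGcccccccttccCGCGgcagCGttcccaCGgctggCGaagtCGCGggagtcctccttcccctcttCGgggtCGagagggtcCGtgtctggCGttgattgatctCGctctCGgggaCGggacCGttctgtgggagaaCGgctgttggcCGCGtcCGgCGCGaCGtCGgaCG
Ly6c2: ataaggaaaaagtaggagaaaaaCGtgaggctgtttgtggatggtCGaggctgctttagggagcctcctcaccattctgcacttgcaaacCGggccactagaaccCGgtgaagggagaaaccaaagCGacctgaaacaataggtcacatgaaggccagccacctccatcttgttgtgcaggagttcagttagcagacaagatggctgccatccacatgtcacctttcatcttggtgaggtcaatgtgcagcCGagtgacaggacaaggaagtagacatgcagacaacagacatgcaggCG
The ribosomal RNA window held 45 CG dinucleotides in its 300 bases, the Pdlim3 window 14, the Krt12 window 10, the Shb window 9, and the Ebf1 and Ly6c2 windows 7 each. The windows were chosen for CG, so these counts are a description. GC content was 70.7% in the ribosomal RNA window and 58% in the Pdlim3 window, against 39% to 51% in the others.

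The pairs were small H3K27ac regions inside large H3K27me3 domains. Members had a median length of 2 kb (range 0.5 to 49.5 kb) and covered 6.98 Mb, whereas partners had a median of 35.5 kb (0.5 to 644.5 kb) and covered 121.9 Mb. In 2174 of 2608 pairs (83.4%) the H3K27ac region lay wholly within the H3K27me3 region. In 72 pairs the H3K27me3 region lay within the H3K27ac region, and the remaining 362 overlapped in part. The boundaries were identical in 7 of the nested pairs, and 91 pairs (3.49%) overlapped by at least 50% of both regions. The median ratio of partner to member length was 21.1.

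**Figure D1:**
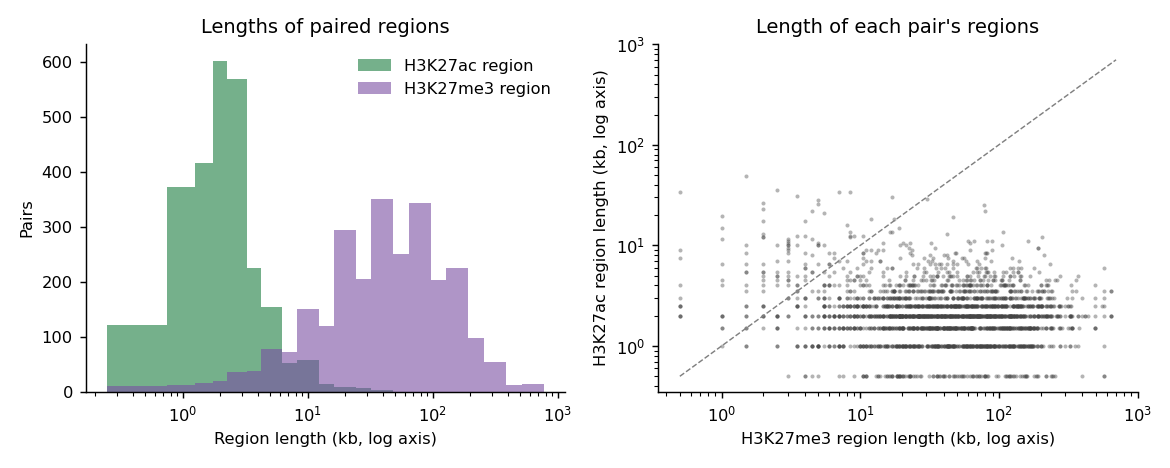
Lengths of the H3K27ac and H3K27me3 regions of the 2608 pairs. The left panel counts pairs by region length in kb on a log axis, and the right panel plots the H3K27ac length against the H3K27me3 length of each pair on log axes, with equal lengths on the dashed line; most pairs lie below it, with a median of 2 kb for members and 35.5 kb for partners.

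Most partners held a single member. Other H3K27ac regions in the same domain, such as those at promoters, were not counted. Of the 2168 partners, 1854 contained 1 member, 314 contained 2 or more and 82 contained 3 or more. Among nested pairs, the middle of the member lay a median of 11.2 kb from the nearer end of the domain. In nested pairs with a partner of at least 20 kb, 294 of 1785 members (16.5%) had their middle in the outer 10% at either end, and 379 (21.2%) in the inner 20%. Sites were found throughout the domains, and the outer and inner zones cover the same share of a domain. The middle of a nested member cannot lie at the very end of a domain. Part of the outer zone was therefore closed to it, and the shares of the zones are not directly comparable. The domain with most members was a 572.5 kb region at chr13:43588001-44160500, which covered the TSSs of Cd83, an activation marker of dendritic cells, and Rnf182, a ubiquitin ligase, and held 8 members. A 496.5 kb domain at chr7:96437501-96934000 next to Tenm4, a teneurin adhesion protein, and Nars2 held 7.

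Members lay as far from genes as other acetylated distal regions. The median distance to a protein-coding TSS was 44.1 kb for members and 44.0 kb for the 18611 distal H3K27ac regions that overlapped no H3K27me3 region, referred to below as H3K27ac-only regions. Their setting differed. Members were intergenic in 61.4% of cases against 44.0%, and overlapped an exon of a protein-coding gene in 7.90% against 24.8%. Because members were shorter than H3K27ac-only regions, whose median was 3.5 kb, the shares were recomputed for regions of 1.5 to 3 kb. In that range 63.2% of 1583 members and 53.1% of 6813 H3K27ac-only regions were intergenic, and 6.89% and 12.4% overlapped an exon.

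The DNA of members was richer in CG and poorer in repeats. Members had a median of 12 CG dinucleotides per kb and 14.3% soft-masked repeats, against 9.14 per kb and 19.7% in H3K27ac-only regions. Promoter regions that carried both marks had 27.3 CG per kb, so members lay between these classes. In the range of 1.5 to 3 kb the medians were 11.7 and 9 CG per kb and 14.8% and 18.6% repeats, and the direction was the same at matched length. GC content had a median of 45.95% in members and 43.5% in H3K27ac-only regions. These values describe regions, which are not replicates, and carry no test.

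Short motifs of transcription factors were counted on both strands of the 1 kb around the middle of each region, or for members around the middle of the overlap of the marks. TGANTCA, a motif bound by AP-1 factors, was present in 43.9% of members and 43.1% of H3K27ac-only regions. TGTGGT, bound by RUNX factors of the bone lineage, was present in 62.1% and 58.2%, and GGAATG, bound by TEAD factors, in 51.1% and 49.0%. TAATTA, the core of many homeodomain motifs, was found in fewer members, 22.0% against 26.5%. CANNTG, the E-box, was near saturation in both classes at 99.5%. The dinucleotide CG was held by 99.9% and 99.6% of these windows. The spaced bases of CANNTG and TGANTCA can be any base, so an E-box can itself hold a CG, and a match shows only that the letters are present.

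Promoters near the members carried H3K27me3 more often than those near other distal regions. The nearest protein-coding gene had H3K27me3 and no H3K27ac over its TSSs for 1063 of 2596 members (40.9%), against 17.1% of H3K27ac-only regions. It had H3K27ac alone for 39.4% of members and 64.8% of H3K27ac-only regions, and both marks for 15.6% and 11.1%. Over all 21840 protein-coding genes, 24.5% had H3K27me3 alone and 47.6% H3K27ac alone. For 748 members (28.8%) the TSS of the nearest gene lay inside the same H3K27me3 region as the member. For those members a single H3K27me3 region entered both values. H3K27ac-only regions overlap no H3K27me3 region by definition, so this could not occur among them. The contrast is thus partly set by the selection, and shares without those members were not computed. The 1022 members whose nearest gene had H3K27ac alone lay farther from it, at a median of 62.2 kb, than the 1063 whose nearest gene had H3K27me3 alone, at 32.0 kb.

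Members were nearest to 1767 genes, of which 1286 had 1 member and 42 had 5 or more. The gene with most was Thsd4, a secreted thrombospondin-type protein of microfibrils, with 12 members over 442.5 kb in 4 partners, including 1 over its TSS. Clint1, an adaptor of vesicle transport, had 10 members in 10 partners, while its promoter carried H3K27ac alone. The H3K27ac log2 fold change was below 0 in 9 of those 10 members, against 59.3% of all members. Its median was -0.24, and none was called. Other genes with 7 or 8 members included Kcnma1, a calcium-activated potassium channel, Slit3, a guidance cue, Wnt5a, a secreted Wnt ligand of limb and skeletal development, Ets1, a transcription factor of mesenchymal and blood cells, and Creb5. Wnt5a had 7 members in 2 partners, the longer of 217 kb, neither of which reached its TSS. The nearest gene is a label of position and does not show which gene, if any, an element acts on.

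Gene groups differed in how many of their acetylated distal regions were members. Among all distal regions that were either members or H3K27ac-only, 12.2% were members. The share was 32.6% for the adipogenic list (14 of 43 regions), 29.3% for homeobox genes (36 of 123), 25.4% for the Wnt pathway (32 of 126) and 23.6% for the FGF pathway (17 of 72). It was 25.7% (9 of 35) for genes of Polycomb and the H3K27 enzymes and 25% (14 of 56) for the Hedgehog and Notch pathways. The shares were 8.33% for extracellular matrix genes (19 of 228), 8.24% for the BMP and TGF-beta pathway (15 of 182), 7.14% for chondrogenic genes (7 of 98) and 9.09% for genes of the stem cell niche (5 of 55). Osteogenic genes, with 13.2% (7 of 53), were close to the share of all distal regions. Lists of few genes rest on few loci, and 6 of the 14 adipogenic genes supplied all of that list's members. In the Polycomb list, 6 of the 9 members were nearest to 1 gene, Jarid2.

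**Figure D2:**
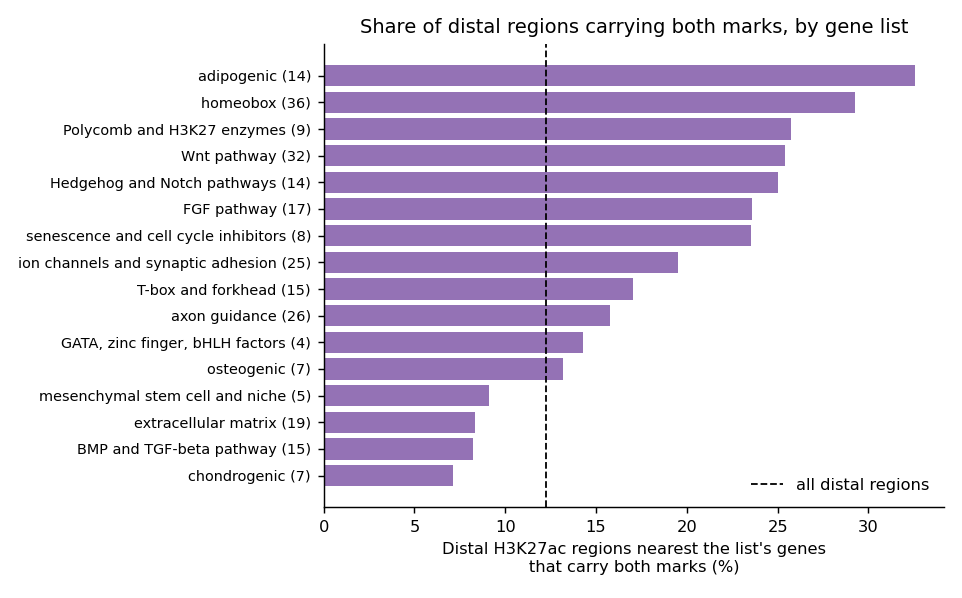
Share of the distal H3K27ac regions nearest to the genes of each list that carried both marks. Bars give the percentage on the x axis, the number of members is in parentheses after each list, and the dashed line is the share over all distal regions, 12.2%; the bars run from 7.14% for chondrogenic genes to 32.6% for adipogenic genes.

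The level of each mark was expressed as a density, in reads per 1000000 mapped reads (RPM) per kb of region, so that regions of different length could be set side by side. The median H3K27ac density of members was 1.26, 1.05 and 1.27 in the young libraries and 0.993, 0.909 and 1.08 in the old libraries. In H3K27ac-only regions it was 1.18, 0.949 and 1.18 in the young and 0.957, 0.951 and 1.08 in the old libraries. Both classes thus lay in the same range. Within libraries, members exceeded H3K27ac-only regions by 0.11 ± 0.05 on the log2 scale with a pseudocount of 0.5 (mean and SD of 6 libraries, higher in 6 of 6). The exact sign-flip permutation test, two-sided, gave p = 0.0312, which is the smallest that 6 libraries allow, and 5 libraries can go no lower than 0.0625. The difference was 0.00 when regions of 2 to 10 kb alone were compared (p = 0.75, exact sign-flip permutation test), and 0.08 with a pseudocount of 0.1 (p = 0.0625). At that length the difference ran from -0.01 to 0.01 over the 6 libraries. Old library 2 had the smallest difference over all lengths, at 0.01, against 0.10 to 0.14 in the others. The pseudocount was added before division by length, so it raised the shorter members more. With a pseudocount of 2 the difference was 0.23. In the densities without it, members were lower than H3K27ac-only regions in old library 2 and equal in old library 3. The 6 of 6 libraries and their p-value thus depend on the pseudocount.

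Over all lengths, partners were denser in H3K27me3 than domains without acetylation, but not at 2 to 10 kb. The median H3K27me3 density of partners was 0.878, 0.941 and 0.941 in the young and 0.877, 0.910 and 0.799 in the old libraries. In the 23230 H3K27me3 regions without H3K27ac it was 0.768, 0.769 and 0.768 in the young and 0.717, 0.733 and 0.708 in the old libraries. Partners exceeded them by 0.20 ± 0.05 on the log2 scale (6 of 6 libraries, p = 0.0312, exact sign-flip permutation test). These regions had a median length of 9.5 kb, against 35.5 kb for partners. Among regions of 2 to 10 kb the difference was -0.03 (318 partners and 10932 other regions, higher in 2 of 6 libraries, p = 0.188 by the same exact test). Over 10 to 50 kb, with 1011 and 9638 regions, it was 0.05 (higher in 5 of 6 libraries, p = 0.0625, exact sign-flip permutation test). From 50 kb upwards, with 820 and 1805 regions, it was 0.09 ± 0.03 (higher in 6 of 6 libraries, p = 0.0312 by that exact test). These last ranges were added after the data were seen. Lengths within each range were not matched further. For comparison, the density outside all regions was about 0.244 to 0.278 for H3K27ac and 0.158 to 0.218 for H3K27me3 over the genome assembly.

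**Figure D3:**
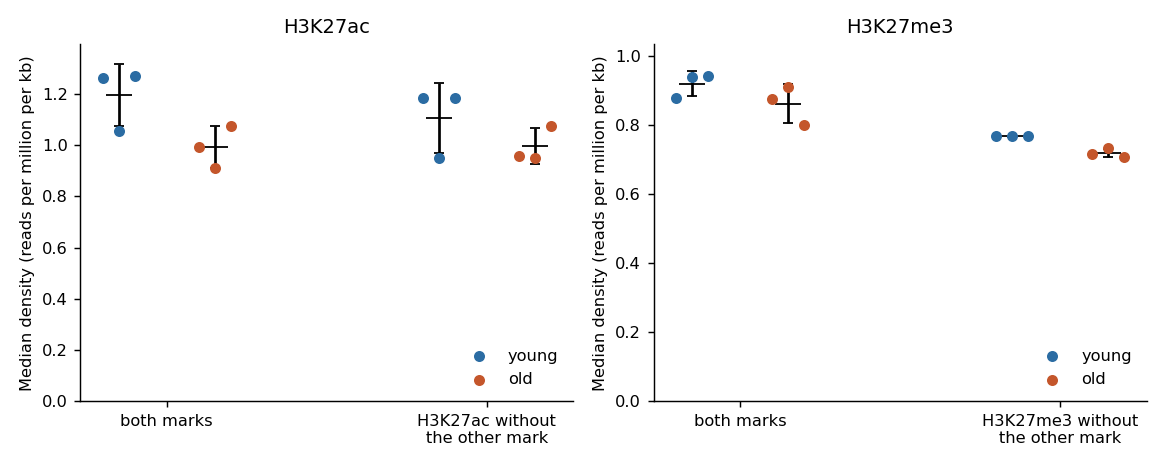
Median density of each mark in each library, in RPM per kb. Points are libraries, bars are the mean and SD of 3 libraries, and the axes start at 0; regions with both marks are on the left of each panel, and for H3K27me3 every library was higher in partners (0.799 to 0.941) than in regions without H3K27ac (0.708 to 0.769).

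The levels of the marks were only loosely related over pairs. The Spearman correlation of their mean densities was 0.13 over 2608 pairs, which share libraries and region lengths. Partner density differed with domain length, from a median of 0.681 in pairs with a domain under 10 kb (343 pairs) to 1.21 in pairs with a domain of at least 100 kb (592 pairs). The corresponding H3K27ac density was 1.07 and 1.14. The pairs that ranked highest in both marks were not typical members. The ribosomal RNA locus had densities of 10.6 for H3K27ac and 7.48 for H3K27me3, a region near Ly6c2 had 9.02 and 3.25, a region in Chl1 had 7.19 and 2.94, and a region nearest to Polr3k had 4.40 and 2.63.

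Apart from the ribosomal RNA locus, these dense pairs were rich in repeats. The H3K27ac regions of all 4 were 1.5 to 7 kb long, and soft-masked repeats took 64.9% of the Polr3k region, 57.7% of the Ly6c2 region and 42.2% of the Chl1 region, against a median of 14.3% in members. The ribosomal RNA and Polr3k pairs had identical boundaries for both marks. Ribosomal RNA genes exist in many copies, and reads from any copy may be placed at 1 assembled locus, so its level is uncertain. Among all pairs, 17 had repeats over more than 50% of the H3K27ac region. Whether such sequence contributed to the signal of either mark was not tested.

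The share of reads in these regions was compared between ages. Members took 0.853%, 0.707% and 0.856% of mapped H3K27ac reads in the young and 0.697%, 0.685% and 0.780% in the old libraries. The means were 0.806% ± 0.085 and 0.721% ± 0.052 (SD, n = 3), and the ages overlapped (p = 0.20, exact permutation test, two-sided). Partners took 13.8%, 15.2% and 15.3% of mapped H3K27me3 reads in the young and 13.7%, 13.4% and 11.7% in the old libraries. Each old library was below each young library, with means of 14.8% ± 0.843 and 13.0% ± 1.09 and p = 0.10, the smallest that 3 against 3 libraries allow in this exact permutation test. The difference of -1.79 percentage points was -1.17 without old library 3. As a share of reads inside all H3K27me3 regions the partners held 22.6% ± 0.444 in young and 22.3% ± 0.457 in old libraries, and the ages overlapped (p = 0.50, exact permutation test). The share of H3K27me3 reads that fell in any region was itself lower in old libraries, at 53.8% to 60.8% against 62.3% to 66.6%.

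H3K27ac at members was also set against H3K27ac-only regions of the same library. The median log2 level of members (scaled signal plus 0.5) differed from that of H3K27ac-only regions by -0.77, -0.75 and -0.74 in the young libraries and by -0.75, -1.05 and -0.77 in the old libraries, a scale that is not corrected for their shorter length. Old library 2 stood apart from the other 5. The change with age was -0.10 (p = 0.40, exact permutation test) and -0.01 without old library 2. That library had a median of 5 reads per member and 29.6% of members at 3 reads or fewer, against 1.54% to 12.1% in the other libraries. For H3K27me3 the same difference between partners and regions without H3K27ac was 2.15 ± 0.07 in young and 2.13 ± 0.06 in old libraries (p = 0.60, exact permutation test).

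Single members were tested between the ages with limma on log2(scaled signal + 0.5), with the Benjamini-Hochberg adjustment made over the full table of each mark. Regions with an adjusted p under 0.05 are termed called. The median log2 fold change of members, old minus young, was -0.10 against -0.01 in H3K27ac-only regions and 0.00 in all H3K27ac regions, and 1539 of 2596 members (59.3%) were below 0. Members of 1.5 to 3 kb had a median of -0.11 and H3K27ac-only regions of that length -0.06. Of the members, 0 were called higher and 1 was called lower in old cells, where the background over all H3K27ac regions was 0.0316% called higher and 0.0506% called lower. At an unadjusted p under 0.05 there were 251 members (9.67%), against 9.6% of all regions. The ages did not overlap, with old higher, at 137 members (5.28%, background 7.09%) and, with old lower, at 234 members (9.01%, background 7.42%).

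H3K27ac at members was measured with little precision. The median member had 10.5 reads per library and a standard error of 0.38 on the log2 scale, against 21.7 reads and 0.27 over all H3K27ac regions. Fold changes of -1.58 ± 0.35 and 1.12 ± 0.25, described below for Ebf1 and P4ha2, did not pass the threshold, so at this depth only differences of several standard errors were detectable. The called members were 5 higher and 3 lower with the quasi-likelihood test of edgeR on recovered reads and 0 with DESeq2, where 75 members had an unadjusted p under 0.05. With the signal as deposited, before scaling between libraries, 0 were higher and 8 lower. It was 0 without young library 1, without young library 3 or without old library 2, and 3, 3 and 2 without young library 2, old library 1 and old library 3.

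The called member lay 14.8 kb from Krt12, a keratin of the corneal epithelium, in intergenic DNA at chr11:99405001-99407500. Its H3K27ac signal was 10.8, 16.2 and 8.88 scaled units (RPM divided by a constant of 0.5 kb and scaled between libraries, with no correction for region length) in the young libraries and 5.18, 1.57 and 3.06 in the old libraries. These values came from 27 to 33 reads in the young and 2 to 13 in the old libraries, and the ages did not overlap. The log2 fold change was -1.80 ± 0.35 (SE), with an adjusted p of 0.024 in limma. The surrounding 75.5 kb domain, which covered the TSSs of Krt12 and Krt20, had H3K27me3 signals of 177, 182 and 193 in the young and 172, 163 and 164 in the old libraries. H3K27me3 was thus also lower in each old library, by a log2 fold change of -0.15 ± 0.08 that was not called (adjusted p = 0.455, limma). The H3K27ac call was lost without young library 1, 2 or 3 or old library 2 (limma adjusted p 0.0552 to 0.213).

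Partners were measured more precisely, and more of them were called. Their median standard error was 0.12, against 0.18 over all H3K27me3 regions, with a median of 241 reads per library. Their median log2 fold change was -0.02, against -0.01 over all H3K27me3 regions. Of 2168 partners, 9 (0.415%) were called higher and 14 (0.646%) lower in old cells, where the background was 0.082% and 0.406%. The ages did not overlap, with old higher, at 210 partners (9.69%, background 8.56%) and, with old lower, at 288 (13.3%, background 10.6%). At an unadjusted p under 0.05 there were 428 partners (19.7%), against 13.9% of all regions. Read depth and length differed between partners and the other regions, and their part in these shares was not tested. The number of called partners was 61 with edgeR, 20 with DESeq2 and 2 in limma without trend and robust moderation. In that last fit none of the 23 partners, nor the member called for H3K27ac, was called, and the 2 called partners were other regions. The number was 2, 5 and 3 without young library 1, 2 or 3 and 36 without old library 2. With the signal as deposited, 7 were called higher and 81 lower.

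The domain with the largest called gain of H3K27me3 lay within Sorbs2, an adaptor of the actin cytoskeleton, at chr8:45782501-45825000. Its member, at chr8:45814001-45817000, was in an intron of Sorbs2 and also overlapped the antisense transcript Sorbs2os. The TSS nearest to it, 68.5 kb away, was that of Pdlim3, an actinin-binding protein of muscle. H3K27me3 was 23.1, 23.5 and 31.6 in the young and 59.2, 83.6 and 61.2 in the old libraries, without overlap of the ages, and the log2 fold change was 1.36 ± 0.15 (limma adjusted p = 0.000176). H3K27ac at the member was 9.80, 9.81 and 8.22 in the young and 7.57, 2.36 and 7.13 in the old libraries. It was lower in each old library, with a log2 fold change of -0.80 ± 0.33 that was not called (adjusted p = 0.425, limma). Of the 15 called regions whose tests were followed through left-out libraries, it was the only one whose call was kept when each of the 6 libraries was left out in turn, and it was lost in limma without trend and robust moderation (adjusted p = 0.0614).

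A second domain of Sorbs2, at chr8:45728501-45751500, changed the same way. H3K27me3 there was 17.0, 18.3 and 26.4 in the young and 30.3, 39.8 and 40.6 in the old libraries. The log2 fold change was 0.84 ± 0.17 (limma adjusted p = 0.0282), and the call was lost without young library 1 or 2 or old library 3 (adjusted p 0.0579 to 0.246, limma). The H3K27ac signal of its member, 6.21, 6.35 and 5.92 in the young and 3.19, 3.15 and 2.55 in the old libraries, was about equal within each age. Its log2 fold change was -0.95 ± 0.36 (adjusted p = 0.368, limma), from 11 to 19 reads in young and 4 to 8 in old libraries. Both domains lay inside 1 gene and may not be independent.

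Ebf1 encodes a transcription factor of B cells that also acts in fat and marrow stromal progenitors. A member 448.7 kb from its TSS, at chr11:45066001-45072500, lay in a 37 kb domain. H3K27ac was 11.4, 9.23 and 10.5 in the young and 5.98, 1.57 and 3.06 in the old libraries, from 16 to 35 and 2 to 15 reads. H3K27me3 over the domain was 35.9, 45.3 and 37.9 in the young and 56.8, 71.1 and 53.9 in the old libraries. The ages did not overlap in either mark. H3K27me3 was called, with a log2 fold change of 0.60 ± 0.13 (limma adjusted p = 0.04), while the H3K27ac fold change of -1.58 ± 0.35 missed the threshold (limma adjusted p = 0.0555). The H3K27me3 call was lost without young library 1, 2 or 3 or old library 1 (limma adjusted p 0.0554 to 0.26), and H3K27ac was called when old library 1 was left out.

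The marks also moved apart in the other direction. At Itpr1, the IP3 receptor that releases calcium from the endoplasmic reticulum, a 24 kb intronic domain at chr6:108308001-108332000 had H3K27me3 of 62.8, 59.8 and 82.1 in the young and 38.4, 28.4 and 40.9 in the old libraries. The domain was called lower, by a log2 fold change of -0.92 ± 0.14 (limma adjusted p = 0.00668), except without young library 3 (adjusted p = 0.117, limma) or without trend and robust moderation (0.162). It held 2 members. H3K27ac of the member at chr6:108324501-108329000 was 7.51, 10.4 and 7.89 in the young and 13.2, 18.9 and 13.8 in the old libraries. Its ages did not overlap, with a log2 fold change of 0.79 ± 0.24 (adjusted p = 0.221, limma). The second member, at chr6:108317501-108319500, had 4.57, 5.77 and 4.28 in the young and 6.78, 2.36 and 5.61 in the old libraries, and its ages overlapped. Neither member was called, and the difference between them was not tested.

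Prdm16, which directs brown fat differentiation, held a 91 kb intronic domain at chr4:154421001-154512000 with 2 members. H3K27me3 was 220, 185 and 196 in the young and 133, 97.8 and 144 in the old libraries, so the ages were well apart. The log2 fold change was -0.70 ± 0.12 (limma adjusted p = 0.0157), and the call was lost without young library 1, 2 or 3 (limma adjusted p 0.0553 to 0.161). H3K27ac of the member at chr4:154498501-154502000 was 5.23, 4.04 and 6.91 in the young and 7.97, 11.01 and 7.13 in the old libraries, a log2 fold change of 0.65 ± 0.31 that was not called (adjusted p = 0.497, limma). The second member, nearest to the TSS of B230104I21Rik, had a log2 fold change of 0.10 ± 0.27, with overlapping ages.

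The largest called loss of H3K27me3 was at a small domain inside broader acetylation. Shb, an adaptor protein of receptor tyrosine kinases, had an 8.5 kb domain lying wholly within a 34 kb H3K27ac region at chr4:45485001-45519000, the reverse of the usual nesting. H3K27me3 was 13.6, 10.9 and 10.7 in the young and 4.37, 2.84 and 5.07 in the old libraries, a log2 fold change of -1.44 ± 0.24 (limma adjusted p = 0.0106). H3K27ac over the larger region was 40.5, 58.9 and 47.0 in the young and 54.2, 77.1 and 59.6 in the old libraries, and the ages overlapped. The H3K27me3 call was lost without young library 1, 2 or 3 (limma adjusted p 0.0747 to 0.18). At Ksr1, a scaffold of the RAF and MEK kinases, a 2 kb domain within a 26.5 kb H3K27ac region had H3K27me3 of 4.74, 3.22 and 1.83 in the young and 1.75, 0.569 and 1.27 in the old libraries, from 7 to 24 and 1 to 8 reads. The difference at Ksr1 was not called (log2 fold change -1.14 ± 0.40, adjusted p = 0.186, limma).

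Other called losses lay near Gm5148 (log2 fold change -1.32 ± 0.29), within Slc39a11, a zinc transporter (-0.63 ± 0.10), and over the TSS of Txnrd1, the cytosolic thioredoxin reductase (-0.62 ± 0.13). Their limma adjusted p-values were 0.0455, 0.0046 and 0.0305. H3K27me3 at Slc39a11 was 112, 107 and 116 in the young and 68.8, 68.8 and 78.3 in the old libraries, without overlap of the ages. H3K27ac of their members did not pass the test, with log2 fold changes of 0.44, 0.38 and -0.21 and overlapping ages. Calls were lost at Gm5148 without young library 1, 2 or 3 or old library 1 (limma adjusted p 0.0524 to 0.274), at Slc39a11 without young library 1 or 3 (0.0699 to 0.0941) and at Txnrd1 without young library 1 or 3 or old library 1 (0.0712 to 0.254). Smaller called losses were found at domains nearest to Arl5a (-0.59), Smim15 (-0.58), Max (-0.56), Igfbp2 (-0.54), Smim18 (-0.51), Smpd3 (-0.47), Irx3 (-0.43) and Psmg4 (-0.34).

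Irx3 is a homeobox gene of limb and trunk patterning. Its 234.5 kb domain at chr8:91745001-91979500 covered the TSS of Irx3 and held 3 members. H3K27me3 was 593, 565 and 627 in the young and 479, 449 and 397 in the old libraries, from 790 to 3000 reads, and each old library was lower. The log2 fold change was -0.43 ± 0.08 (limma adjusted p = 0.0243), with the call lost without young library 1, 2 or 3 (limma adjusted p 0.0961 to 0.205). H3K27ac had log2 fold changes of 0.55 ± 0.25, 0.51 ± 0.32 and -0.19 ± 0.48 at the 3 members in order along the chromosome. Of these, the ages were apart only at the second, with 3.27, 6.35 and 5.59 in the young and 6.78, 7.08 and 7.64 in the old libraries, and none was called.

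Called gains of H3K27me3 were found at 4 other domains among those with the largest changes. At none of them was H3K27ac lower in old libraries with the ages apart. P4ha2 encodes a subunit of the enzyme that hydroxylates collagen, and a pair 38.5 kb from its TSS had higher values of both marks in each old library. At that pair, H3K27me3 was 9.48, 8.25 and 9.68 in the young and 15.5, 18.8 and 17.1 in the old libraries, a called log2 fold change of 0.87 ± 0.18 (limma adjusted p = 0.0321). H3K27ac was 4.90, 8.66 and 8.22 in the young and 13.95, 17.3 and 16.8 in the old libraries, without overlap, a log2 fold change of 1.12 ± 0.25 that missed the threshold (limma adjusted p = 0.0612). The H3K27me3 call was lost without young library 1, 2 or 3 or old library 3 (limma adjusted p 0.0522 to 0.204). Repeats took 34.8% of this member, more than in the median member.

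The called gains near Polr3k, a subunit of RNA polymerase III, and Ly6c2, a surface antigen of monocytes, belonged to the dense and repeat-rich pairs described above. H3K27me3 was 9.09, 11.9 and 9.94 in the young and 20.7, 20.5 and 23.8 in the old libraries at Polr3k, with a log2 fold change of 1.04 ± 0.17 (limma adjusted p = 0.00851). At Ly6c2 it was 31.2, 26.8 and 26.7 in the young and 46.1, 44.4 and 40.9 in the old libraries, with a log2 fold change of 0.63 ± 0.13 (limma adjusted p = 0.0284). H3K27ac overlapped between the ages at both. A pair beside that of Polr3k on the same chromosome was nearest to Gm14496. It had repeats over 54.6% of its length, and both marks were higher in each old library, with log2 fold changes of 1.07 ± 0.30 for H3K27ac and 0.95 ± 0.23 for H3K27me3, neither of which was called (limma adjusted p = 0.168 and 0.0701). Calls were lost without young library 1 or 3 at Polr3k (limma adjusted p 0.0941 to 0.113) and without young library 1, 2 or 3 or old library 1 at Ly6c2 (0.0653 to 0.205).

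At Piezo2, a channel opened by mechanical force, a 34 kb domain over the TSS had H3K27me3 of 52.9, 59.2 and 60.2 in the young and 80.1, 107 and 77.3 in the old libraries. The log2 fold change was 0.60 ± 0.12 (limma adjusted p = 0.0284), lost without young library 1, 2 or 3 (limma adjusted p 0.129 to 0.246). Its member had an H3K27ac log2 fold change of -0.61 ± 0.50 (limma adjusted p = 0.746), with 1 to 15 reads per library and overlapping ages. These reads were too few to tell a loss of H3K27ac from none. The remaining called gains were at domains nearest to Ppp1r3b (0.59) and Ice1 (0.55).

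**Figure D4:**
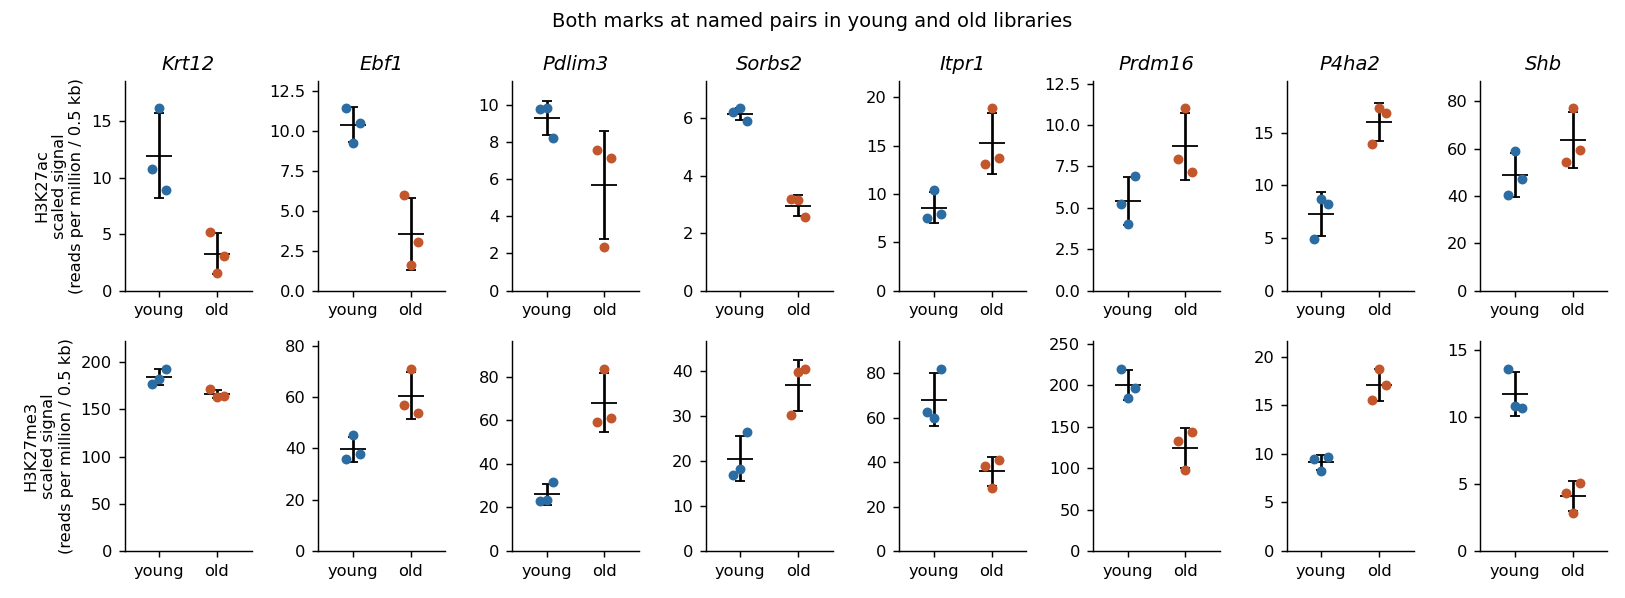
Scaled signal of H3K27ac (upper row) and H3K27me3 (lower row) at 8 pairs named in the text. Points are libraries, bars are the mean and SD of 3 libraries, and each axis starts at 0; at Ebf1, Pdlim3 and Sorbs2 old libraries were lower in H3K27ac and higher in H3K27me3, and at Itpr1 and Prdm16 the reverse.

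The direction of both marks was then compared pair by pair. H3K27me3 was read over the whole partner, at the median 21.1 times as long as the member. Its level at the acetylated site alone was not measured. The log2 fold changes had opposite signs in 1450 of 2608 pairs (55.6%), and their Spearman correlation was -0.20. The share was 60.9% in the 722 pairs at promoters that carried both marks, so an opposed direction was not particular to distal pairs. It was 59.2% in pairs with a domain under 10 kb and 50.7% in pairs with a domain of at least 100 kb. In the 91 pairs that overlapped by at least 50% of both regions it was 49.5%. The share of opposite signs depends on where the centre of each mark is placed. With the signal as deposited, where the median log2 fold change of all regions was -0.12 for H3K27ac and -0.13 for H3K27me3 in place of 0.00 and -0.01, it was 43.9%, while the Spearman correlation stayed at -0.20. Members and partners had medians of -0.20 and -0.15 on that scale. Pairs are not replicates, and both marks came from the same cultures.

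Few pairs had ages that were apart in both marks. H3K27ac was lower and H3K27me3 higher in old libraries at 39 pairs (1.50%), against 1.45% of all 5042 overlapping pairs of regions. H3K27ac was higher and H3K27me3 lower at 28 pairs (1.07%, background 1.39%). Both marks were higher at 10 pairs (0.383%, background 0.357%) and both lower at 23 pairs (0.882%, background 0.655%). These shares were near the background. That background includes the member pairs themselves, and shares without them were not computed. Of the 1412 pairs with a mean of at least 10 reads in both marks, 21, 18, 8 and 9 fell into these 4 patterns.

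**Figure D5:**
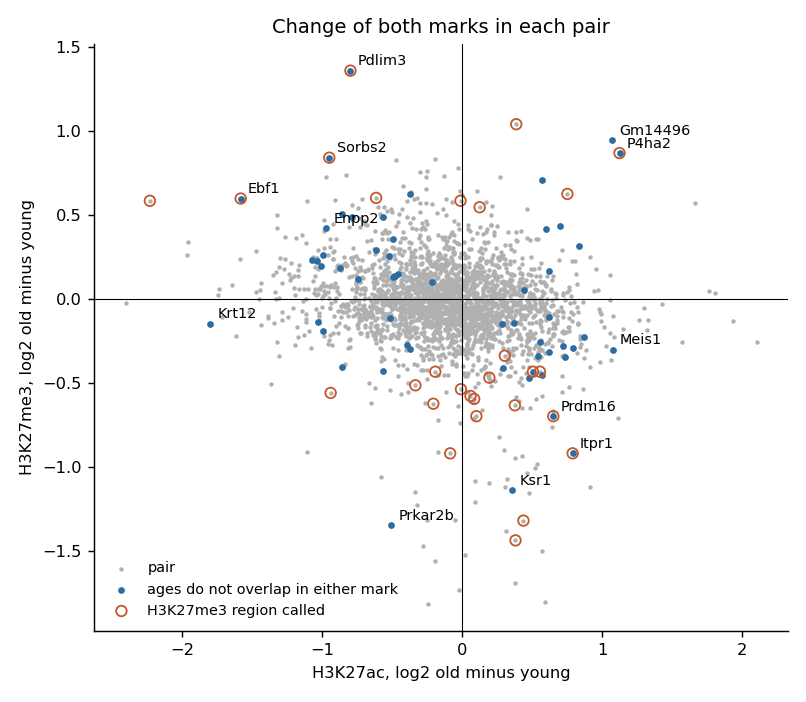
Log2 fold change, old minus young, of H3K27ac (x axis) and H3K27me3 (y axis) at the 2608 pairs. Blue points are pairs with at least 10 mean reads whose ages did not overlap in either mark, orange circles are pairs with a called H3K27me3 region, and genes are named for the pairs with the largest summed change in each quadrant; the Spearman correlation over pairs was -0.20.

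Several of these pairs lay near genes of known function. Meis1 is a homeobox cofactor of HOX proteins, and a member 139.7 kb from its TSS had H3K27ac of 4.25, 1.73 and 3.29 in the young and 5.58, 7.08 and 7.64 in the old libraries. H3K27me3 of its 62 kb domain was 155, 148 and 151 in the young and 141, 104 and 126 in the old libraries. Neither change was called, with log2 fold changes of 1.08 ± 0.37 and -0.30 ± 0.10. Enpp2 encodes autotaxin, which makes lysophosphatidic acid, and a member over its exon had H3K27ac of 8.49, 6.35 and 6.91 in the young and 3.59, 3.15 and 3.57 in the old libraries. H3K27me3 was 34.4, 32.4 and 41.3 in the young and 43.9, 50.6 and 50.4 in the old libraries at Enpp2, and neither change was called (limma adjusted p = 0.299 and 0.12). At Prkar2b, a regulatory subunit of protein kinase A, both marks were lower in each old library and neither was called (log2 fold changes of -0.51 ± 0.31 and -1.35 ± 0.32).

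Across the gene lists few members passed the test. In limma, none of the 16 gene lists had a called H3K27ac member, and called partners were limited to 1 gain in the adipogenic list (Ebf1) and 1 loss in the homeobox list (Irx3). Homeobox genes had 36 members in 31 partners, near 20 of 69 genes. Their H3K27me3 log2 fold changes had a median of -0.14, 23 of 31 partners were below 0, and the ages were apart at 9 partners, all lower in old cells. Of all partners 55.6% were below 0 and 13.3% had the ages apart with old lower, and of all H3K27me3 regions 51.4% and 10.6%. The medians were -0.02 over all partners and -0.01 over all H3K27me3 regions, and genes of this class share domains and chromosomal clusters. The T-box and forkhead list had 15 members in 14 partners, with a median of 0.09 for H3K27me3 and -0.29 for H3K27ac. Of those members, 14 of 15 were below 0 for H3K27ac, against 59.3% of all members and 50.4% of all H3K27ac regions. The ages were apart at 1 of them, with old lower, and for H3K27me3 at 5 of the 14 partners, 4 with old higher (9.69% of all partners) and 1 with old lower. All list values are on the scaled signal, and the shift of all regions that scaling removed, -0.12 for H3K27ac and -0.13 for H3K27me3, exceeded many of the list medians.

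Tbx4, a hindlimb T-box factor, supplied 3 domains of that list. The domain at chr11:85857501-85939000, over its TSS, had H3K27me3 of 117, 157 and 158 in the young and 191, 226 and 163 in the old libraries. Those at chr11:85955001-85969000 and chr11:85974001-86007500 had 12.4, 17.1 and 14.9 and 44.8, 45.1 and 44.5 in the young, and 18.6, 35.3 and 24.7 and 57.2, 69.95 and 58.3 in the old libraries. All 3 were higher in each old library, with log2 fold changes of 0.43 ± 0.12, 0.76 ± 0.20 and 0.45 ± 0.11, and none was called (limma adjusted p 0.0699 to 0.121). H3K27ac of the members overlapped between the ages.

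Members near the osteogenic list were 7, from 4 of 20 genes, with medians of -0.12 for both marks. At Msx2, a homeobox factor of skull and tooth bone formation, a 23 kb domain 57.4 kb from the TSS had H3K27me3 of 54.5, 49.3 and 60.2 in the young and 44.3, 29.6 and 40.3 in the old libraries (log2 fold change -0.53 ± 0.14, limma adjusted p = 0.0827). The adipogenic list had 14 members in 10 partners. Beside the called Ebf1 domain, a second Ebf1 domain of 14.5 kb had H3K27me3 of 12.2, 15.1 and 14.6 in the young and 22.9, 34.1 and 17.4 in the old libraries, each old library higher and not called (limma adjusted p = 0.0849). At Pparg, the master regulator of fat cells, H3K27me3 overlapped between the ages (log2 fold change -0.50 ± 0.17, limma adjusted p = 0.162). Of the 7 chondrogenic members, the one within Acan, the main proteoglycan of cartilage, had H3K27ac of 39.5, 35.8 and 37.8 in the young and 27.5, 29.9 and 26.5 in the old libraries (log2 fold change -0.43 ± 0.15, limma adjusted p = 0.307).

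Signalling lists also had no called member or partner. In the Wnt list, 23 of 32 members were below 0 for H3K27ac, with a median of -0.23 against -0.10 over all members. Of all members 59.3% were below 0. At Wnt16, a Wnt ligand of cortical bone, H3K27ac of a member 6.23 kb from the TSS was 12.4, 10.4 and 10.2 in the young and 4.78, 6.29 and 6.12 in the old libraries (log2 fold change -0.89 ± 0.28, limma adjusted p = 0.228). In the FGF list the median was -0.08 for H3K27ac and -0.16 for H3K27me3. At Fgf8, a limb and brain growth factor, H3K27me3 was 150, 154 and 161 in the young and 138, 127 and 109 in the old libraries (log2 fold change -0.32 ± 0.10, limma adjusted p = 0.122). At Hes1, a target of Notch, a 167.5 kb domain with 4 members had H3K27me3 of 405, 389 and 413 in the young and 347, 318 and 289 in the old libraries. The log2 fold change at Hes1 was -0.34 ± 0.08, and its limma adjusted p of 0.0636 missed the threshold.

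The BMP and TGF-beta list had medians of -0.14 for H3K27ac and 0.04 for H3K27me3 over 15 members and 14 partners. The axon guidance list had 26 members with a median of -0.21 for H3K27ac, and the list of ion channels and synaptic adhesion 25 with -0.05. Extracellular matrix members were the exception in sign for H3K27ac, with a median of 0.20 and 5 of 19 below 0, against 59.3% of all members. The Hedgehog and Notch members had a median of -0.10, the 4 members of the GATA, zinc finger and bHLH list -0.07, the 9 of the Polycomb list -0.34 and the 5 of the niche list -0.40. Of the 9 Polycomb list members, 6 were nearest to Jarid2. Senescence genes and inhibitors of the cell cycle had 8 members, from 4 genes, and 6 of their 7 partners were above 0 for H3K27me3, with a median of 0.24. Of all partners 55.6% were below 0. Near Cdkn1a, the p21 inhibitor, a member over the non-coding RNA Trp53cor1 had 17, 6 and 18 H3K27ac reads in the young and 10, 0 and 4 in the old libraries, too few to resolve a difference (limma adjusted p = 0.338). In none of these lists was a member or partner called.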

How the data were processed

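The authors deposited 1 signal table per mark, holding reads per 1000000 mapped reads divided by a constant 0.5 kb rather than by region length. Regions had been called on old and young cells together in steps of 500 bp. Each carried a label of 1 or both ages, and 99.2% of members and 98.6% of partners were labelled with both. Among the exceptions, H3K27ac at Krt12 and Ebf1 and H3K27me3 at Shb were labelled young alone. H3K27me3 at the Pdlim3 pair was labelled old alone. The submitters' processing notes name Bowtie2, Picard, mm10 and GRCm38, and the caller is not given in the sources used here. The stop buffer held yeast DNA, and a spike-in was not analysed here. All values were whole multiples of 1 read (100%, tolerance 0.01 reads), which gave the library sizes and read counts.

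Regions were matched by position to GENCODE mm10 genes and RefSeq GRCm38.p6 sequence. The signal was scaled between libraries by relative log expression factors and tested as log2(signal + 0.5) in limma 3.58.1 (R 4.3.3) with trended, robust empirical Bayes moderation, without a filter on low values. P-values were adjusted by Benjamini-Hochberg over all regions of a mark. Levels per library were compared with exact permutation and sign-flip tests in Python 3.11.15, all two-sided. Alternatives, including edgeR 4.0.16 and DESeq2 1.42.0 on recovered reads, covered scaling, pseudocount, moderation, filter, overlap, distance, replicate block and single libraries. Scripts were tested on simulated data.

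Pairs were named by the nearest protein-coding TSS to the middle of the H3K27ac region. Named were up to 6 called regions per mark and direction with the largest change and no overlap of the ages, the pairs with the largest summed change and at least 10 reads in each direction of both marks, the 4 densest pairs, and up to 3 pairs per gene list with the smallest p. Further called domains, and loci with many members, were named after their values were seen. The regions, lists and tests were chosen with earlier results of these data known. The ± values are SDs over libraries or limma standard errors, and read floors cover counting error only.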

Additional observations from a re-analysis of the deposited data

How the results depend on the processing

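Of 126 alternative values for 9 results, 75 kept their direction and side of the threshold or stayed near the reported value, and of 1013 alternative values for 71 named regions 902 did. For a named region that was not called, staying uncalled counted as kept, so the 902 do not measure how stable the calls were. A call was lost in 62 of the 1013, and only the called regions, a minority of the 71, could lose a call. The count of called H3K27ac members (1) was 8 with the signal as deposited, 3 with a pseudocount of 2, 0 in limma without trend and robust moderation (327 at an unadjusted p under 0.05), 8 with edgeR, 0 with DESeq2 (75 at an unadjusted p under 0.05), 3 with an overlap of 1 bp and 0 of 91 with an overlap of 50% of both regions (14 at an unadjusted p under 0.05). It ranged from 0 to 3 when each library was left out. The count of called H3K27me3 partners (23) was 88 as deposited, 15 with a pseudocount of 0.1, 2 without trend and robust moderation (0 shared with the reported 23), 61 with edgeR and 3 of 91 with an overlap of 50% of both regions, and from 2 to 36 when each library was left out. With the replicate block it was 44 (22 shared with the reported 23), and the H3K27ac count was 7. Same-number correlations of the deviations were -0.05 to 0.07 for H3K27ac and -0.08 to 0.04 for H3K27me3. With 3 values per mark, these low correlations cannot decide whether samples of the same number were processed together.

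The H3K27ac density difference (0.11) was 0.075 with a pseudocount of 0.1 and 0.23 with a pseudocount of 2. It was 0.00078 for regions of 2 to 10 kb, and -0.15 with an overlap of 50% of both regions. For H3K27me3 (0.20) it was -0.026 for 2 to 10 kb, 0.045 for 10 to 50 kb and -0.080 with that overlap. Leaving out libraries gave 0.10 to 0.13 and 0.19 to 0.22, where 5 libraries cannot reach a p below 0.0625. The change with age of the H3K27me3 read share was 0.0013 percentage points with an overlap of 50% of both regions, against -1.79, and -2.27 to -1.17 over left-out libraries, the last without old library 3. For H3K27ac it was -0.134 to -0.060 over left-out libraries, against -0.0851, the first without young library 2. That of partners relative to other regions was 0.0094 with an overlap of 1 bp and 0.015 with means, and -0.059 to 0.013 over left-out libraries. The share of opposite signs was 43.9% as deposited and 49.5% with an overlap of 50% of both regions, and 52.5% to 57.7% over left-out libraries.

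Named values that changed sign were small. The second Itpr1 member (-0.09) was 0.18 with edgeR, and ranged from -0.35 to 0.32 over left-out libraries, above 0 without young library 2 or old library 2. The B230104I21Rik member (0.10) was -0.012 as deposited, and ranged from -0.037 to 0.31, below 0 without young library 1 or old library 2. H3K27me3 at the ribosomal RNA locus near Esp38 (0.12) was -0.00705 as deposited, and ranged from -0.011 to 0.24, below 0 without old library 2. The third Irx3 member (-0.19) ranged from -0.59 to 0.36, above 0 without young library 1 or old library 3. The cause of these changes was not tested. The limit of depth was greatest for H3K27ac in old library 2, with a median of 5 reads per member.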
